A study of Mus musculus with 6 samples.

Results

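The genes described here are 43 genes of the mitotic spindle, the spindle checkpoint, the kinetochore, the chromosomal passenger complex, condensin and cytokinesis, chosen by symbol. All 43 were among the 23420 genes of the deposited table and all 43 were among the 11974 genes with enough reads to be tested. In a dividing cell, condensin compacts the replicated chromosomes, kinetochores built on centromeric chromatin attach them to spindle microtubules, and the spindle checkpoint delays anaphase until every kinetochore is attached. Cdc20 then activates the anaphase-promoting complex (APC/C), which destroys securin and cyclin B, separase opens the cohesin rings, and the cytokinesis proteins divide the cell. Most of these genes are transcribed in G2 and M phase, repressed in resting cells by the DREAM complex and activated by B-MYB and FOXM1, so their transcripts are widely read as a measure of dividing cells.

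The cells were mesenchymal stromal cells (MSCs), adherent cells flushed from the femurs of female C57BL/6 mice of 6 to 8 weeks and expanded in culture. At passage 5 they were transduced with the AP2 retroviral construct, which carries eGFP as a marker and was packaged with the VSV-G envelope. The 3 Ctl MSC libraries came from cells given the empty AP2 construct, and the 3 MSC-TPr libraries from cells given AP2 with the thymoproteasome (TPr) subunits β1i (Psmb9), β2i (Psmb10) and β5t (Psmb11) joined by viral self-cleaving peptide sequences. As the paper describes the cells, both groups were given the vector with its marker, and MSCs were grown in serum-containing medium. Whether the 3 libraries of a label came from separate transductions, cultures or passages is not given in the sources used here, so the p-values measure only the spread between these libraries, which may be technical.

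Between 16158756 and 22158887 reads per library lay on genes, and between 11022 and 80699 of them on the 43 mitotic genes. Values are in CPM, reads scaled to library size with the TMM method, in which 3 reads amount to 0.139 to 0.181, a limit set by counting error alone. The labels were checked on the transduced genes. Psmb10 stood at 27.8, 8.81 and 8.38 CPM in Ctl MSC 1, 2 and 3, and at 8.97, 17.3 and 15.2 CPM in MSC-TPr 1, 2 and 3, Psmb9 at 3.38, 0.801 and 0.827 CPM and 0.554, 1.24 and 1.21 CPM, and Psmb11 did not pass 0.355 CPM in any library. None of them was higher in every MSC-TPr library than in every Ctl MSC library. The 3 highest libraries for both Psmb9 and Psmb10 were Ctl MSC 1, MSC-TPr 2 and MSC-TPr 3. Of all genes tested, 23% had that arrangement, so it does not set these 2 genes apart. Another 10.6% were higher, and 12.1% lower, in every MSC-TPr library than in every Ctl MSC library. Psmb11 had 2, 4 and 2 reads in Ctl MSC and 4, 6 and 1 in MSC-TPr. Its reads therefore mark no library as transduced, whichever labels Ctl MSC 1 and MSC-TPr 1 carry. Whether these 2 libraries carry each other's label cannot be told from these files. Every comparison below between the labels rests on the labels as given. MSC-TPr and Ctl MSC are therefore used for the libraries labelled so. The MSC surface marker Eng was at 142 to 204 CPM in all 6 libraries, the smallest span of the 11 MSC markers tested. Nt5e ranged from 2.66 CPM in MSC-TPr 1 to 20.2 CPM in Ctl MSC 2, while Thy1 had 1 read in total. Of 11 haematopoietic markers 10 stayed under 1 CPM in every library, with no read of Emr1, Cd3e or Laptm5 in any library. The other, Cd68, reached 14.2 CPM in MSC-TPr 1. The endothelial markers Pecam1 and Cdh5 did not pass 0.221 CPM, but Vwf and Kdr reached 21.4 and 2.99 CPM in MSC-TPr 1.

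The mitotic genes did not follow the labels as given. For 42 of the 43, the 3 libraries with the highest CPM were Ctl MSC 1, MSC-TPr 2 and MSC-TPr 3, an arrangement found in 23% of the 11974 genes tested. Together the 43 genes held 0.390% of the reads on genes in Ctl MSC 1, 0.350% in MSC-TPr 2 and 0.364% in MSC-TPr 3, but 0.0624% in Ctl MSC 2, 0.0613% in Ctl MSC 3 and 0.0668% in MSC-TPr 1. The gap between the lowest of the 3 high libraries and the highest of the 3 low ones was at least 1 log2 unit for 41 genes and at least 2 log2 units for 33. Across the 6 libraries the median gene of the group spanned 3.18 log2 units, from 0.75 for Pttg1 to 5.55 for Cenpm, in comparison to a median span of 0.95 over all genes tested. In bulk RNA, fewer dividing cells and less mitotic RNA per cell cannot be told apart.

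**Figure D1:**
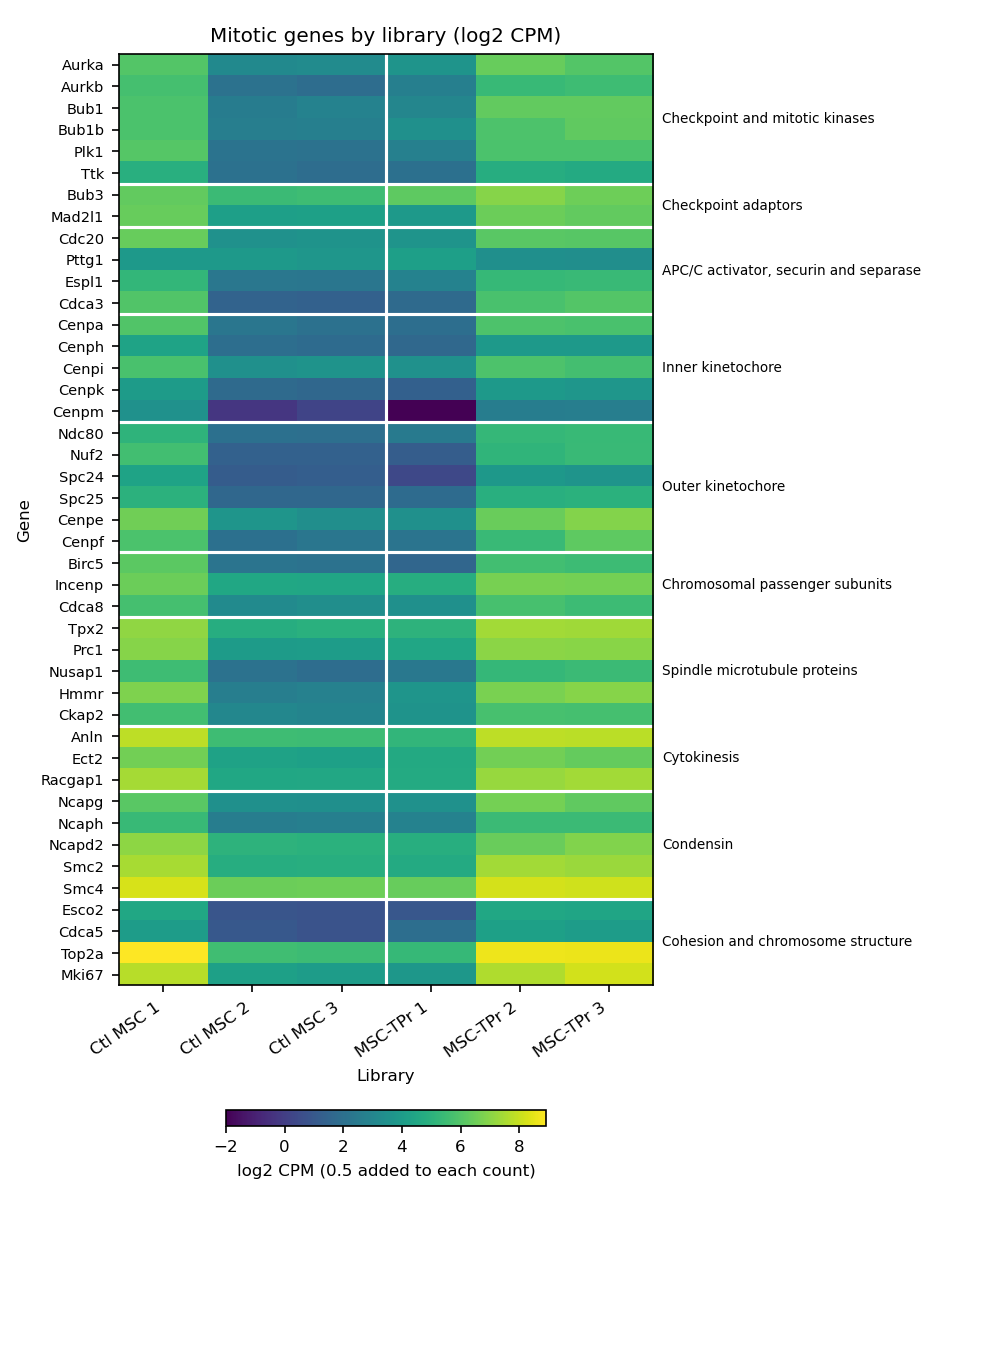
Heat map of log2 CPM (colour, with 0.5 added to each count) of the 43 mitotic genes (rows, by role) in the 3 Ctl MSC and 3 MSC-TPr libraries (columns). Ctl MSC 1, MSC-TPr 2 and MSC-TPr 3 are brighter in every row but that of Pttg1, and in the Bub3 row MSC-TPr 1 comes close to Ctl MSC 1.

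Between the labels over all 6 libraries, 0 of the 43 genes passed the threshold in either direction, an adjusted p under 0.05 together with a size of 0.5 or more on the log2 scale (edgeR quasi-likelihood test, Benjamini-Hochberg adjustment over all genes tested), where the background was 0.0251% of genes higher and 0.401% lower in MSC-TPr. DESeq2 likewise called 0 of the 36 that it gave an adjusted p, against 1.9% higher and 3.42% lower among all genes. At an unadjusted p under 0.05, 1 gene was higher in MSC-TPr, Bub3, against 6.81% of all genes higher and 8.23% lower. The fitted log2 fold changes were above 0 for 41 genes, in comparison to 6124 of the 11974 genes tested. Their median was 0.69 and their range from -0.13 for Pttg1 to 1.25 for Bub1, while the median of all genes tested was 0.01. Of the 43 genes, 42 shared the same 3 high libraries, so their signs are not separate results. The intervals were wide. For Plk1 the log2 fold change was 0.69 with a 95% interval from -2.28 to 3.66, which leaves room for a large difference in either direction. No gene of the 43 had groups that did not overlap, in comparison to 10.6% of all genes higher and 12.1% lower in every MSC-TPr library.

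Each MSC-TPr library was also set beside the Ctl MSC library of the same number, as values without a test, since each is 1 library against 1. In the first pair, 41 genes were at least 2-fold lower in MSC-TPr and 0 at least 2-fold higher, where 16.6% of all genes were lower and 10.2% higher by that much. In the second and the third pair, 42 genes were at least 2-fold higher and 0 at least 2-fold lower, against 11% and 10.4% of all genes higher and 13.4% and 9.34% lower. The median log2 ratio of the 43 genes was -2.65, 2.91 and 2.82 in the 3 pairs, and the median of all genes was -0.0012, -0.013 and -0.0062. Bub3 was the gene below 2-fold in the first pair beside Pttg1, and Pttg1 alone was below 2-fold in the other pairs.

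**Figure D2:**
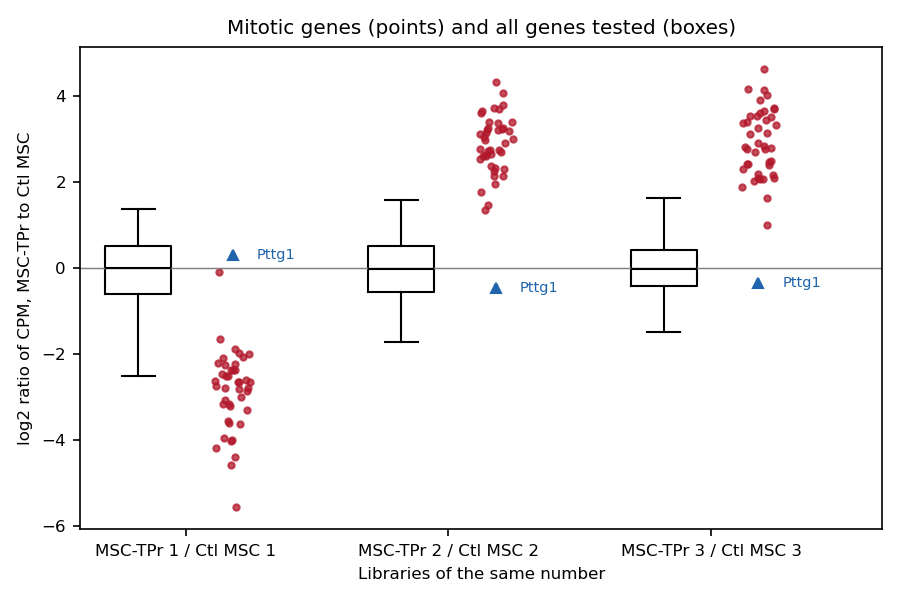
Log2 ratio of CPM, MSC-TPr to Ctl MSC, in each pair of libraries with the same number, for the 43 mitotic genes (points, with Pttg1 as a triangle) and for all 11974 genes tested (boxes with quartiles and median, whiskers from the 5th to the 95th percentile). The mitotic genes lie below 0 in the first pair, at a median of -2.65, and above 0 in the second and the third, at 2.91 and 2.82, with Pttg1 on the other side of 0 each time.

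When only the libraries numbered 2 and 3 were fitted, 42 of the 43 genes were called higher in MSC-TPr and 0 lower (edgeR, adjusted p under 0.05), against a background of 20.6% of genes higher and 19.4% lower. Their median log2 fold change was then 2.96, and the largest was 4.50 for Cdca3. Ctl MSC 1 alone moved the value most. Without it the median was 2.495 over the other 5 libraries, with 34 genes higher at an unadjusted p under 0.05 in comparison to 11.9% of all genes (11.5% lower), but again 0 called after adjustment (background 0.0246% higher and 0.862% lower). The common dispersion was 0.124 over 6 libraries and 0.0168 over the 4, which hold Ctl MSC 2 and 3, the most alike of all pairs of libraries (chi-square of 4.98 per gene, against 52.7 for MSC-TPr 2 and 3, the next most alike). The 42 calls therefore compare 2 libraries with 2, all 4 of them on the sides already seen in the heat map, and they were not called once the first library of each label entered.

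**Figure D3:**
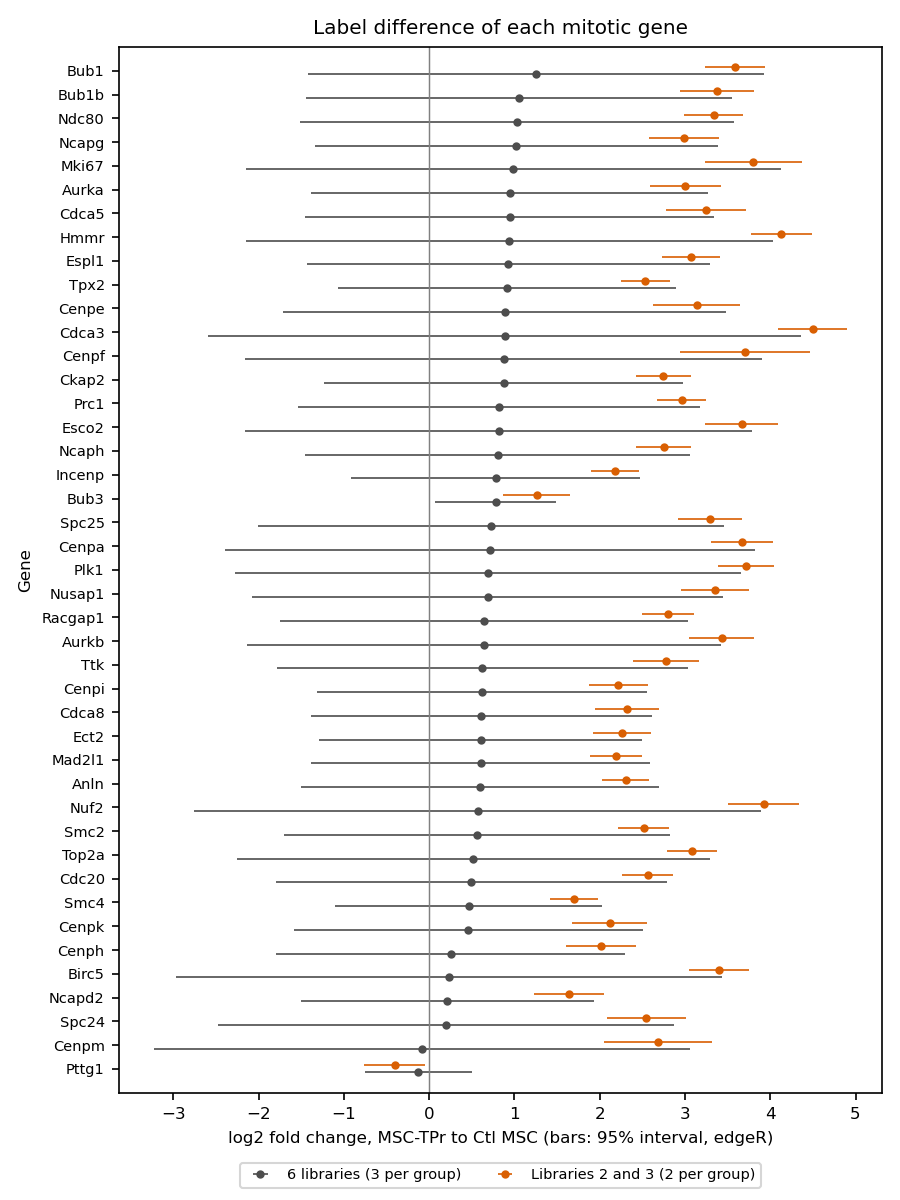
Log2 fold change of each mitotic gene, MSC-TPr to Ctl MSC, with its 95% interval from the edgeR fit over all 6 libraries (grey) and over libraries 2 and 3 of each label (orange). The grey intervals cover 0 for every gene but Bub3, whereas the orange ones lie above 0 for every gene but Pttg1, whose interval lies below 0.

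The promoters of these genes were examined next, since the choice by symbol made no use of sequence. The cell cycle genes homology region (CHR), TTTGAA or the variant TTCGAA, is read by the DREAM and MuvB complexes, and the CCAAT box by NF-Y. In RefSeq promoter windows of 300 bases (250 before to 50 after the start, GRCm38.p6), searched on both strands for TTTGAA or TTCGAA and for CCAAT, 37 of the 43 genes had a window. A CHR-type motif was present in 27 of the 37 (73.0%), in comparison to 16.0% of the 8947 tested genes with a window and 21.7% of all 27025. CCAAT was present in 28 (75.7%), against 43.7% and 41.1%, and both motifs in 24 (64.9%), against 8.06% and 9.65%. Restricting the count to genes with a single window gave 72.7% of 33 mitotic genes and 13.2% of 7076 tested genes with a CHR-type motif. Other mitotic genes held it in 38 of 70 (54.3%) and DNA replication genes in 6 of 27 (22.2%). A match is a description of the letters and not a bound site.

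The windows of 5 genes are shown because they carry both motifs and stand for the roles described below: a kinase, the APC/C activator, the centromeric histone, the proliferation marker and the checkpoint adaptor Bub3 (the first of its 2 windows), which spanned the least of them over the libraries. Each runs 5′ to 3′ along the gene, with CHR-type and CCAAT matches in capitals (TTCAAA and ATTGG are the same motifs on the other strand).
Plk1 (chr7:122159185-122159484, plus strand): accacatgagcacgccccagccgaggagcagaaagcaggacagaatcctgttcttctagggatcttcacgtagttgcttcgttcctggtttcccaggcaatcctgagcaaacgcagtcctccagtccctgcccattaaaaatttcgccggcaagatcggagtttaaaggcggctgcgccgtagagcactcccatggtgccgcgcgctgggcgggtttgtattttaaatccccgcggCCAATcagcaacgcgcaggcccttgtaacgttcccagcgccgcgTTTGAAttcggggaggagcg
Cdc20 (chr4:118437294-118437593, minus strand): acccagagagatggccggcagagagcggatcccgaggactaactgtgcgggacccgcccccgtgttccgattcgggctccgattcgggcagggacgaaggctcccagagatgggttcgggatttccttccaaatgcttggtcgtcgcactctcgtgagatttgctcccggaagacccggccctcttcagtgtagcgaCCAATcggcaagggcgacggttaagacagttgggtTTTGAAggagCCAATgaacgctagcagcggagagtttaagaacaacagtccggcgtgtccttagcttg
Cenpa (chr5:30666636-30666935, plus strand): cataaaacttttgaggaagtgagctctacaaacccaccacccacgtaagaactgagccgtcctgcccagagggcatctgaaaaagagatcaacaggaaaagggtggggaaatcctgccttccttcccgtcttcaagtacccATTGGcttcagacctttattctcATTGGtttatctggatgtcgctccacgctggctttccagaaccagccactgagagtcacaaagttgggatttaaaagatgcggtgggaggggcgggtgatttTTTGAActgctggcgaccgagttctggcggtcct
Mki67 (chr7:135716330-135716629, minus strand): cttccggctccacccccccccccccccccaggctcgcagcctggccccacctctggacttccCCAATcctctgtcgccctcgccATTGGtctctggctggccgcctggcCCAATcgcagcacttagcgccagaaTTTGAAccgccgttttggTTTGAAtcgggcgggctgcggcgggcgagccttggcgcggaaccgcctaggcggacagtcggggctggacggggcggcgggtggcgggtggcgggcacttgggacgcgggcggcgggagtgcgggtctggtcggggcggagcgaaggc
Bub3 (chr7:131560120-131560419, plus strand): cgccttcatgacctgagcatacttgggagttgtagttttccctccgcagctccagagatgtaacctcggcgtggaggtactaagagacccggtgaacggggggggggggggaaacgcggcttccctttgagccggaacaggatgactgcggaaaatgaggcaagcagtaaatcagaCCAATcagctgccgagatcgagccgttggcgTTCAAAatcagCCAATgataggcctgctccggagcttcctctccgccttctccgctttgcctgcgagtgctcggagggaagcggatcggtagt
Plk1 and Cenpa hold the CHR-type motif after the RefSeq start and Cdc20 and Bub3 before it, and Mki67 holds 2 of them with 3 CCAAT boxes. GENCODE places the start of Bub3 148 bases upstream of the RefSeq start, so that its motif lies after the GENCODE start. The 27 genes with a CHR-type motif spanned 1.47 to 5.55 log2 units over the 6 libraries (median 3.21) and the 10 without it 0.75 to 4.57 (median 2.72), so the ranges overlapped nearly throughout. Birc5 and Nuf2, among the widest of all, had neither motif in the window. Pttg1 had neither as well, but its RefSeq start lies 270 bases inside the gene as GENCODE draws it. For 28 of the 37 genes both annotations placed the start within 100 bases. The starts of Cdca8, Cdca3 and Cenpm differed by more than that of Pttg1, at 2394, 629 and 412 bases.

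**Figure D4:**
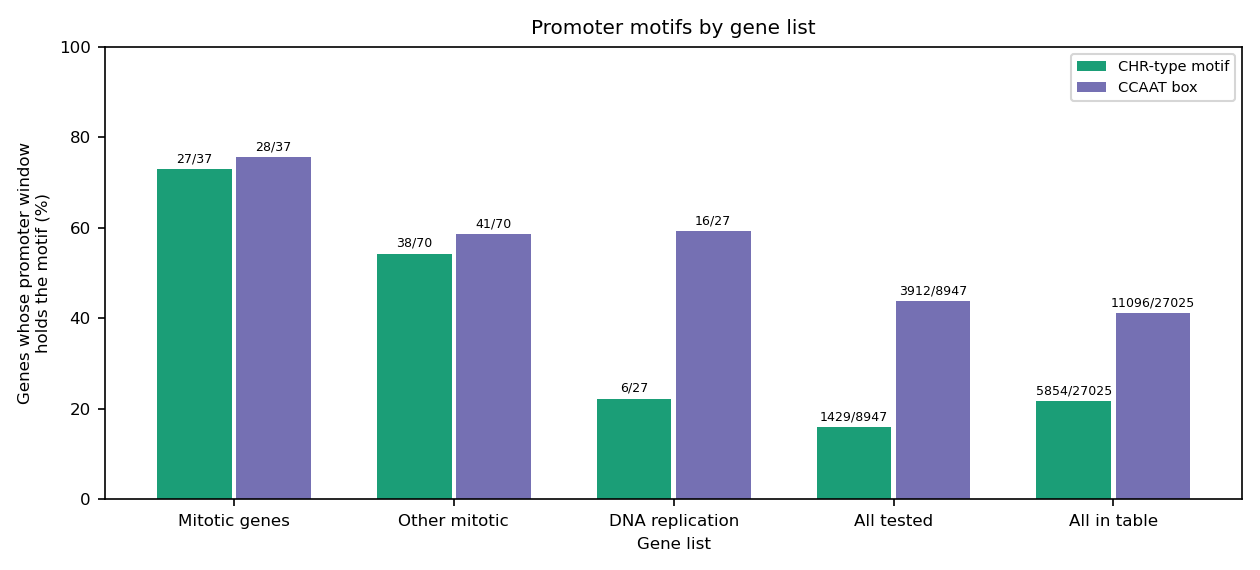
Share of genes (percent, with counts above the bars) whose 300-base RefSeq promoter window holds a CHR-type motif (green) or CCAAT (purple) on either strand, by gene list. The CHR-type share is 73.0% in the mitotic genes, 54.3% in other mitotic genes, 22.2% in DNA replication genes and 16.0% in all genes tested.

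Among the kinases, Plk1 (chr7:122159439-122169873 in mm10), which drives mitotic entry and spindle assembly, stood at 66.8, 4.38 and 4.36 CPM in Ctl MSC 1, 2 and 3 and at 6.75, 57.3 and 57.4 CPM in MSC-TPr 1, 2 and 3. Aurka, which matures the spindle poles, stood at 65.1, 8.97 and 9.49 CPM and at 12.6, 83.5 and 64.6 CPM. Ctl MSC 1 thus lay with MSC-TPr 2 and 3 for both, and the labels overlapped. Bub1, a checkpoint kinase that marks the centromere, was at 56.6, 5.98 and 7.12 CPM and at 8.14, 79.6 and 78.0 CPM, and had the highest fitted log2 fold change of the 43 (1.25, 95% interval -1.42 to 3.92, adjusted p = 0.647, edgeR). Bub1b, its relative in the mitotic checkpoint complex, was at 57.3, 6.41 and 6.56 CPM and at 11.2, 58.6 and 76.1 CPM. MSC-TPr 1 was above Ctl MSC 2 and 3 for both of them, by 0.44 and 0.19 log2 units for Bub1 and by 0.80 and 0.77 for Bub1b. The kinase Ttk, which starts checkpoint signalling at the kinetochore, spanned 3.70 to 29.8 CPM and Aurkb, the kinase of the chromosomal passenger complex, 3.75 to 51.8 CPM, both with the same 3 libraries on top.

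The checkpoint adaptors split. Mad2l1, whose protein holds Cdc20 inactive at unattached kinetochores, was at 83.1, 18.2 and 18.3 CPM in Ctl MSC and at 15.1, 87.6 and 79.0 CPM in MSC-TPr, the arrangement of the kinases. Bub3, which brings Bub1 and Bub1b to the kinetochore and also takes part in interphase processes, was at 78.2, 44.0 and 46.0 CPM in Ctl MSC and at 73.5, 122 and 92.8 CPM in MSC-TPr. For Bub3 the low libraries were Ctl MSC 2 and 3 alone, MSC-TPr 1 lay 0.09 log2 units below Ctl MSC 1, and the labels overlapped only through that pair. Its log2 fold change was 0.78 (SE 0.298, unadjusted p = 0.0369, adjusted p = 0.296, edgeR), which did not pass the threshold, and it had the lowest p of the 43 genes. Bub3 spanned 2.78-fold over the 6 libraries and 25.8% of all genes tested spanned at least as much, the narrowest span of the 43 after that of Pttg1. In a fit chosen after seeing the data, with the mean log2 CPM of 35 DNA replication genes as a covariate, Bub1 (0.65, adjusted p = 0.0333) and Bub3 (0.62, adjusted p = 0.0256) were called higher in MSC-TPr and no mitotic gene lower, against 4.48% of all genes higher and 6.88% lower (edgeR). Those 2 of 43 genes are near the share of all genes called higher in that fit, so nothing is read from them. The covariate itself followed the 3 high libraries, at 5.86, 4.01 and 4.08 in Ctl MSC and at 3.91, 5.85 and 5.62 in MSC-TPr.

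Cdc20, the activator of the APC/C, was at 83.9, 11.4 and 12.1 CPM in Ctl MSC and at 12.6, 70.8 and 67.8 CPM in MSC-TPr. Espl1, separase, spanned 4.85 to 42.8 CPM with the same 3 libraries high. Pttg1 encodes securin, the inhibitor of separase that the APC/C destroys at anaphase, and it stood apart from both. Its level was 14.6, 14.9 and 13.5 CPM in Ctl MSC and at 17.99, 10.7 and 10.7 CPM in MSC-TPr. Its highest library was thus MSC-TPr 1 and its lowest were MSC-TPr 2 and 3, a span of 1.69-fold that 64.0% of all genes tested reached or passed. The log2 fold change of Pttg1 was -0.13 (95% interval -0.75 to 0.50, adjusted p = 0.859, edgeR) over 6 libraries and -0.41 (adjusted p = 0.0668) over libraries 2 and 3, so it was called in neither. Cdca3, a protein that promotes destruction of the mitotic entry inhibitor Wee1, spanned 2.59 to 64.9 CPM, 24.8-fold, and had the largest gap of the 43 between its high and low libraries, 4.02 log2 units.

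At the inner kinetochore, Cenpa, the histone H3 variant that marks centromeres, was at 62.8, 4.81 and 4.14 CPM in Ctl MSC and at 3.88, 58.9 and 54.9 CPM in MSC-TPr. Cenph, Cenpi and Cenpk, subunits of the constitutive centromere network, had the same 3 libraries high, with spans of 6.30-fold, 5.20-fold and 6.23-fold. Cenpm, a further subunit of that network, was at 11.7, 0.801 and 1.16 CPM in Ctl MSC and at 0.221, 6.21 and 6.35 CPM in MSC-TPr. Its 46.9-fold span was the widest of the 43 genes, and 0.651% of all genes tested spanned as much. The lowest value rested on 4 reads (exact 95% Poisson interval 0.0603 to 0.567 CPM, counting error only), which lay below Ctl MSC 3 (0.717 to 1.77 CPM) and met the interval of Ctl MSC 2 (0.448 to 1.32 CPM). Within both sets of libraries Cenpm was lower under the MSC-TPr label, by 1.73 and 2.25 log2 units for MSC-TPr 1 against Ctl MSC 2 and 3 and by 0.91 and 0.87 for MSC-TPr 2 and 3 against Ctl MSC 1. These are differences between single libraries, and the fitted log2 fold change over all 6 was -0.085 (95% interval -3.23 to 3.06, adjusted p = 0.984, edgeR).

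The Ndc80 complex, which binds microtubules at the outer kinetochore, has 4 subunits, and all 4 were high in the same 3 libraries. Ndc80 was at 34.3, 4.06 and 3.92 CPM in Ctl MSC and at 5.59, 39.2 and 41.4 CPM in MSC-TPr, and Nuf2 at 49.2, 2.56 and 2.59 CPM and at 2.33, 35.8 and 42.4 CPM. Spc24 was at 20.1, 2.24 and 2.37 CPM and at 1.27, 14.3 and 12.7 CPM, while Spc25 spanned 3.10 to 32.9 CPM. Per kilobase of exon the 4 transcripts summed to 31.2, 2.87 and 2.92 CPM per kb in Ctl MSC and to 2.83, 26.4 and 28.0 CPM per kb in MSC-TPr, high in the same 3 libraries as its parts. Spc25 kept 33.1% to 33.8% of that sum in Ctl MSC and 34.8% to 39.2% in MSC-TPr. Spc24 took 25.1%, 30.3% and 31.6% in Ctl MSC and 17.5%, 21.0% and 17.7% in MSC-TPr, and Ndc80 took 16.9%, 21.8% and 20.7% and then 30.4%, 22.8% and 22.8%. The share of Spc24 was lower, and those of Ndc80 and Spc25 higher, in every MSC-TPr library than in every Ctl MSC library. Over the Ndc80, chromosomal passenger and condensin I complexes 3 of 13 subunit shares did not overlap between the labels, beside 10.6% of all genes whose CPM was higher and 12.1% whose CPM was lower without overlap, so nothing is read from these 3. Of the outer kinetochore proteins that bind later, the motor Cenpe spanned 10.4 to 119 CPM and Cenpf, a large coiled-coil protein, 4.06 to 73.9 CPM, with MSC-TPr 3 the highest library for both.

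The chromosomal passenger complex joins Aurkb to Birc5, Incenp and Cdca8 and corrects faulty attachments. Birc5, survivin, was at 73.1, 4.59 and 4.25 CPM in Ctl MSC and at 3.05, 48.5 and 44.5 CPM in MSC-TPr. Incenp, the scaffold, was at 89.5, 22.9 and 21.9 CPM and at 28.4, 102 and 99.96 CPM, and Cdca8, borealin, spanned 9.24 to 53.7 CPM. The same 3 libraries were high for all of them, but not by the same factor, 23.8-fold for Birc5 and 4.64-fold for Incenp. Per kb of exon, Incenp made up 29.6%, 53.5% and 52.7% of the summed transcripts of the complex in Ctl MSC and 55.4%, 37.9% and 38.2% in MSC-TPr, whereas Birc5 made up 30.8%, 13.7% and 13.0% and 7.56%, 22.98% and 21.7%. The share of Incenp was thus higher, and that of Birc5 lower, in the 3 libraries with few mitotic transcripts. Birc5 was lower in MSC-TPr 1 than in Ctl MSC 2 and 3, by 0.59 and 0.48 log2 units, and lower in MSC-TPr 2 and 3 than in Ctl MSC 1, by 0.59 and 0.72, yet its fitted log2 fold change was 0.23 (95% interval -2.97 to 3.44, adjusted p = 0.953, edgeR).

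**Figure D5:**
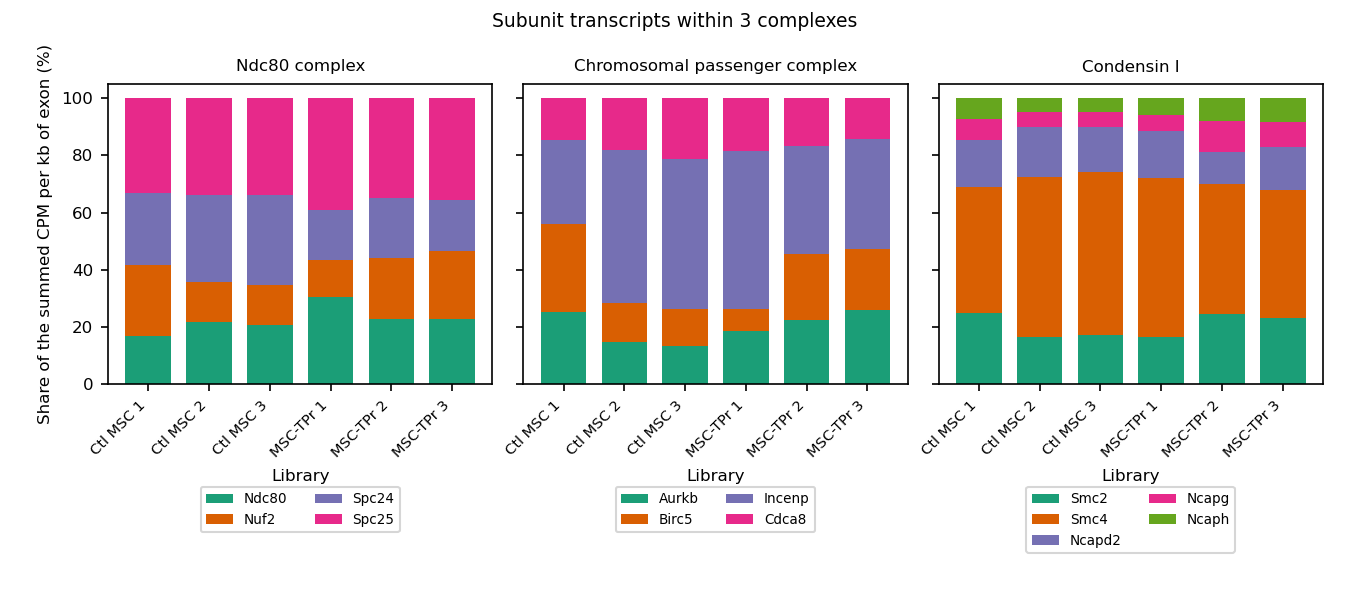
Share of each subunit (percent) in the summed CPM per kb of exon of the Ndc80 complex, the chromosomal passenger complex and condensin I, by library. Incenp takes 52.7% to 55.4% of the passenger complex in Ctl MSC 2, Ctl MSC 3 and MSC-TPr 1 but 29.6% to 38.2% in the other libraries, while Spc25 stays between 33.1% and 39.2% of the Ndc80 complex.

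Among the spindle proteins, Tpx2, which activates Aurka on microtubules, was at 139, 27.7 and 30.3 CPM in Ctl MSC and at 33.3, 168 and 168 CPM in MSC-TPr. Prc1, which bundles the antiparallel microtubules of the central spindle, was at 124, 16.1 and 16.7 CPM and at 21.9, 129 and 125 CPM. Hmmr, a spindle pole protein that is also the hyaluronan-mediated motility receptor, was at 114, 6.36 and 6.84 CPM and at 12.8, 107 and 123 CPM. All 3 were high in Ctl MSC 1 and in MSC-TPr 2 and 3. In MSC-TPr 1, Hmmr lay above Ctl MSC 2 and 3 by 1.01 and 0.90 log2 units. Nusap1, a microtubule bundler at the chromosomes, spanned 3.75 to 46.6 CPM and Ckap2, which nucleates spindle microtubules, 7.56 to 54.0 CPM. Nusap1 shares exon bases with Oip5 on the opposite strand, and Prc1 with Rccd1. Plk1, Cdc20, Cenpk, Cdca8 and Ncapg also share exon bases with a gene on the opposite strand, which makes 7 of the 43.

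The 3 cytokinesis genes spanned less than the median of the 43. Anln, anillin, the scaffold of the contractile ring, was at 229, 46.3 and 44.6 CPM in Ctl MSC and at 36.6, 228 and 220 CPM in MSC-TPr. Racgap1, a subunit of centralspindlin, was at 176, 22.6 and 23.5 CPM and at 25.5, 152 and 169 CPM, and Ect2, the exchange factor that activates RhoA at the equator, spanned 18.3 to 97.96 CPM. Again the labels overlapped and Ctl MSC 1, MSC-TPr 2 and MSC-TPr 3 were high. Of the 43 genes, Racgap1 followed the mean profile most closely, never more than 0.099 log2 units from it in any library, with Ttk next at 0.11.

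Condensin I comprises Smc2, Smc4, Ncapd2, Ncapg and Ncaph. Smc4, the ATPase shared with condensin II, had the highest mean level of the 43 genes per length, 37.0 CPM per kb of exon, and was at 305, 89.2 and 92.5 CPM in Ctl MSC and at 83.1, 303 and 285 CPM in MSC-TPr. Smc2, its partner ATPase, was at 181, 27.8 and 29.1 CPM and at 25.8, 169 and 155 CPM. Smc4 was high in the same 3 libraries as Smc2, but spanned 1.88 log2 units where Smc2 spanned 2.81. Smc4 consequently took 55.7% to 57.0% of the condensin I transcripts per kb in Ctl MSC 2, Ctl MSC 3 and MSC-TPr 1 and 44.2% to 45.8% in the other libraries. Of the regulatory subunits, Ncapd2 spanned 29.2 to 135 CPM, Ncapg 10.98 to 99.4 CPM and Ncaph 6.25 to 43.4 CPM. Ncapg had a log2 fold change of 1.02 and Ncapd2 of 0.21, both with intervals across 0, and the exons of Ncapd2 overlap those of Gm28967 and Scarna10 on the same strand, so reads there cannot be assigned with certainty.

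Esco2 and Cdca5 (sororin) establish and protect sister chromatid cohesion. Esco2 was at 23.1, 1.82 and 1.71 CPM in Ctl MSC and at 1.94, 23.1 and 21.7 CPM in MSC-TPr, and Cdca5 at 16.6, 1.98 and 1.71 CPM and at 3.88, 18.5 and 16.6 CPM. Both were high in the same 3 libraries, and for Cdca5 MSC-TPr 1 stood above Ctl MSC 2 and 3 by 0.96 and 1.17 log2 units. Top2a, the topoisomerase that untangles sister chromatids, had the second highest mean level of the 43 genes per length, 26.2 CPM per kb of exon, and was at 488, 48.3 and 45.6 CPM in Ctl MSC and at 40.1, 398 and 395 CPM in MSC-TPr. Mki67 encodes Ki-67, the coat protein of mitotic chromosomes and the usual stain for cycling cells, and was at 218, 18.6 and 16.5 CPM and at 13.7, 195 and 293 CPM. For Top2a and Mki67 MSC-TPr 1 was the lowest of the 6 libraries, although Ctl MSC 2 and 3 were close to it. The exons of Top2a overlap those of Gm23451 on the same strand, so here too some reads cannot be assigned with certainty. Neither passed the threshold between the labels, with adjusted p = 0.870 for Top2a and 0.775 for Mki67 (edgeR).

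How far the 6 libraries differed from each other was compared next. MSC-TPr 2 and 3 differed from each other by -0.40 to 0.80 log2 units over the 43 genes (median -0.026), and Ctl MSC 2 and 3 by -0.32 to 0.52 (median -0.045). MSC-TPr 2 lay -0.91 to 0.64 log2 units from Ctl MSC 1 (median -0.087), and MSC-TPr 1 lay -1.73 to 1.01 from Ctl MSC 2 (median 0.18). These differences across labels varied more from gene to gene than those between libraries 2 and 3 of 1 label, but were far smaller than the median of 2.89 between Ctl MSC 1 and Ctl MSC 2, which carry the same label. Ctl MSC 2 and 3 were not copies of each other, but they were far more alike than any other pair, with a chi-square of 4.98 per gene where the other pairs lay between 52.7 and 215.6. Ctl MSC 1 was the highest library for 20 genes, MSC-TPr 2 for 13, MSC-TPr 3 for 9 and MSC-TPr 1 for Pttg1.

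Genes outside the 43 were used as a frame. Of 88 other genes of chromosome segregation and cytokinesis in the table, 0 passed the threshold between the labels (edgeR). At an unadjusted p under 0.05 (edgeR), 3 of them were higher and 1 lower, where 6.81% of all genes were higher and 8.23% lower. DESeq2 called 1 of them, Cenpo, higher, against 1.9% higher and 3.42% lower among all genes. For 70 of the 88 (79.5%), Ctl MSC 1, MSC-TPr 2 and MSC-TPr 3 were the highest libraries, against 23% of all genes tested. Ccnb2, a mitotic cyclin, spanned the most, at 49.1, 3.69 and 3.31 CPM and 1.55, 39.3 and 38.4 CPM, followed by Ska1, and the cohesin subunit Stag2 the least, at 171 to 195 CPM. For 34 of 35 DNA replication genes (97.1%) the same libraries were highest and 0 passed the threshold (0 in either direction unadjusted, 0 by DESeq2), with Tk1, thymidine kinase, and Rrm2, a ribonucleotide reductase subunit, spanning the most and the helicase subunit Mcm7 the least. Among the genes outside the 43 most like the mean mitotic profile over the 6 libraries were Gtse1, Kif20b, Dkk2 and Ercc6l, at most 0.12, 0.14, 0.18 and 0.19 log2 units from it in any library.

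The regulators of the programme were less uniform. Of 26 E2F, RB, DREAM, NF-Y and FOXM1 factors and CDK inhibitors, 12 (46.2%) had Ctl MSC 1, MSC-TPr 2 and MSC-TPr 3 highest. Of all genes tested 23% had that arrangement. E2f8, a repressive E2F that is itself a cell cycle target, was at 20.7, 2.03 and 1.71 CPM in Ctl MSC. In MSC-TPr it was at 1.83, 22.4 and 23.8 CPM. Mybl2, B-MYB, was at 24.95, 4.38 and 3.64 CPM and at 3.76, 45.7 and 41.6 CPM. Both were high in the same libraries as the mitotic genes. E2f5 stayed between 14.1 and 19.4 CPM. Between the labels 0 passed the threshold (edgeR). At an unadjusted p under 0.05 (edgeR), 2 were higher and 3 lower, where 6.81% of all genes were higher and 8.23% lower. DESeq2 called E2f4 higher (log2 fold change 0.63, adjusted p = 0.0162) and Cdkn2a, which encodes p16 and p19Arf, lower (-0.67, adjusted p = 0.00679). Among all genes DESeq2 called 1.9% higher and 3.42% lower.

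Other markers moved with the mitotic genes, against them or apart from them. Cd68, a lysosomal protein used as a macrophage marker, was at 1.63, 9.67 and 7.39 CPM in Ctl MSC and at 14.2, 1.66 and 0.789 CPM in MSC-TPr, higher in the 3 libraries with few mitotic transcripts, and in every library but MSC-TPr 3 it was the highest of the 11 haematopoietic markers, which together summed to 1.99 to 14.3 CPM. Csf1r, the macrophage growth factor receptor and the other haematopoietic marker with enough reads to be tested, went the opposite way, at 0.725, 0.0534 and 0.0552 CPM and at 0, 0.769 and 0.835 CPM. Vwf, like Cd68, was higher in the libraries with few mitotic transcripts, up to 21.4 CPM in MSC-TPr 1, and Kdr reached 2.99 CPM there, within a sum of 1.27 to 24.7 CPM over 7 endothelial markers. Cd44, an MSC surface marker, was at 536, 144 and 142 CPM and 205, 519 and 532 CPM, following the mitotic genes, as did Col1a1, at 3250, 660 and 639 CPM and 354, 3052 and 6916 CPM. Nt5e did not, at 11.4, 20.2 and 17.4 CPM and 2.66, 4.20 and 5.24 CPM (adjusted p = 0.0790, edgeR). The 12 MSC markers summed to 3156 to 15682 CPM, with 7 of the 11 tested highest in Ctl MSC 1, MSC-TPr 2 and MSC-TPr 3 (23% of all genes tested). Of 12 reference genes 7 had that order too, but Gapdh, which spanned the most of them, varied by 1.14 log2 units, in comparison to 3.18 for the median mitotic gene, and Ywhaz, which spanned the least, by 0.24. The part of these markers in the mitotic values was not tested.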

How the data were processed

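RNA-seq of polyadenylated RNA (stranded kit) was taken from 3 Ctl MSC and 3 MSC-TPr libraries, grouped by the sample labels. The authors deposited raw read counts per gene (Htseq-count, mm10, no normalization). The submitters' processing notes name CASAVA 1.8.2, Trimmomatic 0.35 and TopHat2 2.1.0. The strand setting of the counting is not given in the sources used here, and 7 of the 43 genes share exon bases with a gene on the opposite strand. Reads on genes were 79.2% to 86.2% of each column, and the 5 summary rows (no feature 6.86% to 10.9%, ambiguous 0.939% to 1.09%, not unique 5.89% to 8.92%) were left out. No column was left unmapped to a sample.

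The counts were fitted by edgeR 4.0.16 in R 4.3.3, using TMM scaling, the filterByExpr filter and a quasi-likelihood test of the label alone, with Benjamini-Hochberg adjustment over all genes tested. A call needed an adjusted p under 0.05 and a size of 0.5 or more on the log2 scale. DESeq2 1.42.0 was an alternative. Both were run on simulated counts, in which libraries of the same label did not split as the mitotic genes did here. That run therefore does not bear on the calls for these genes. Log2 CPM has 0.5 added to each count, and levels between genes were compared per kb of GENCODE vM21 exon. Further settings were RLE or upper quartile scaling, other filters, libraries 2 and 3 alone, a replicate block and leaving out each library.

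The 43 genes and all lists were chosen with earlier results of these data known, so no list was tested as a set. All 43 genes are named. Of the other lists, the genes called, the 2 with the largest and the 1 with the smallest span are named, and of genes outside the 43 the 5 nearest to the mean profile. Some items that these rules name are not reported here. Cenpo, E2f4 and Cdkn2a were named after their values were seen. Marker lists covered MSC, haematopoietic, endothelial and reference genes. Promoter windows come from RefSeq (GRCm38.p6). A protein motif (KEN) was not analysed here.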

Additional observations from a re-analysis of the deposited data

How the results depend on the processing

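RLE or upper quartile scaling and testing without a filter changed neither the direction nor the call of any of the 43 genes. Nor did a minimum of 10 counts in every library for the 42 genes it kept. DESeq2 changed no direction, and no call among the 36 genes that it gave an adjusted p. The other 7 had neither an unadjusted nor an adjusted p in DESeq2, so their call there is not known. The same number did not pair the libraries. The correlation of their deviations from the group means was -0.755, -0.574 and -0.59, and each library lay nearer to one of another number. Within a label the deviations sum to 0, so these values are not separate, and the first library of each label weighs on all of them. With the replicate number as a block, 0 of the 43 genes were called (median 1.57, 0 at an unadjusted p under 0.05), Cenpm turned to 1.02, and all genes called fell to 0 higher and 0 lower. Over libraries 2 and 3 alone 42 mitotic genes were called higher (median 2.96, Cenpm 2.68), with 66 other mitotic genes, 33 DNA replication genes, 11 regulators higher and 4 lower, and 2498 of all genes higher and 2356 lower. DESeq2 called 1 other mitotic gene, 1 regulator higher and 1 lower, and 244 and 439 of all genes. A minimum of 10 counts left 29 genes lower.

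Leaving out 1 library gave a mitotic median of 0.256 to 2.495, the highest without Ctl MSC 1, and 0 to 11 of all genes higher and 0 to 105 lower. It turned the sign of 6 uncalled genes, which ranged from -0.42 to 0.0086 (Pttg1), -0.14 to 1.58 (Cenph), -0.58 to 2.12 (Cenpm), -0.25 to 2.03 (Spc24), -0.28 to 2.86 (Birc5) and -0.19 to 1.25 (Ncapd2). A fit with the mean log2 CPM of the DNA replication genes as a covariate was chosen after seeing the data. It called 2 mitotic genes higher, Bub1 and Bub3, and 537 of all genes higher (4.48%) and 824 lower (6.88%), with a mitotic median of 0.28. In it Cenph (-0.17), Cenpk (-0.081), Spc24 (-0.44), Birc5 (-0.31), Ncapd2 (-0.13) and Top2a (-0.012) turned sign, none of them called. The cause of these changes was not tested. Low depth limits Cenpm most, at 4 reads in MSC-TPr 1.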
